A study of Mus musculus with 11 samples.

Results

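The 44 genes described here encode the receptors, scaffolds and release proteins of the glutamatergic, or excitatory, synapse. They were taken by gene symbol from a table of 46202 gene rows measured by RNA sequencing in mouse hippocampus, and all 44 were found and had a value in every library. They comprise 4 AMPA, 6 NMDA and 5 kainate receptor subunits, 6 metabotropic glutamate receptors, 11 postsynaptic scaffold genes, 2 CaMKII subunits, 2 neuroligins, 2 vesicular glutamate transporters, 3 genes of vesicle release and 3 TARP auxiliary subunits. The mice were males of the strain given as C3-C57B1/6J, 2 to 3 months old, housed singly and anaesthetized with isoflurane before the brain was taken. Saline (3 libraries) or insulin at 2.4 IU per nostril was given through the nose, and hippocampus was collected 15 min (2 libraries, replicates 1 and 3), 1 h (3 libraries) or 6 h (3 libraries) after insulin. Titles of the controls say saline, whereas the treatment is labelled untreated at 0 min; the name saline is kept. All 3 comparisons use these same controls, so sampling time and handling cannot be told apart from insulin. The labels state 3 animals per time without saying that each library is 1 animal, and the p-values rest on the spread between libraries.

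At an excitatory synapse glutamate is packed into vesicles by vesicular transporters, released by the SNARE proteins and detected by receptors on the opposite membrane. AMPA receptors carry the fast current, NMDA receptors admit calcium when release and depolarization coincide, and calcium then acts on CaMKII, a kinase required for long-term potentiation in the hippocampus. Scaffold proteins of the DLG, DLGAP and SHANK families stack beneath the receptors and tie them to the actin skeleton. Since the measurement is of RNA, it bears on the supply of transcripts and not on receptor number or synaptic strength.

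The deposited values are log2 signals, on which a difference of 1 is a doubling, made comparable between libraries by the authors so that every library has the same lowest value, median and highest value. They fall with the length of the gene, so levels are compared between libraries within a gene and never between genes. Sequencing depth is unknown. From 32037 to 33653 genes had a value in a library. The tissue label was checked against markers. All 8 dentate granule and all 10 pyramidal neuron markers had a value in every library. The median deviation from saline in a library ran from -0.26 to 0.15 for the pyramidal list. For the dentate list it was 0.19, -0.31 and 0.31 in the saline libraries and 0.25 and -0.26 at 15 min. It was -0.56, -0.72 and -0.31 at 1 h, and 0.1, -0.38 and -0.11 at 6 h. The part of this in the values of the synapse genes was not tested. Single markers varied more (Neurod6 from -2.07 to 2.55, Lct from -6.68 to -2.67). All 8 thalamus markers were measured in every library too, with a median deviation of -0.45 to 0.11, and the summed linear signal of 9 striatal markers ranged from 9.47 to 27.0. The share of tissue from next to the hippocampus in each library was not measured, and in bulk tissue fewer cells of a type and less RNA per cell cannot be told apart.

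Libraries of the same group differed in the 44 genes. At 15 min the median member lay 0.25 above the saline mean in replicate 3 and 0.07 below it in replicate 1, while the median of all rows lay 0.16 and 0.10 below. Of the 3 libraries collected at 6 h, replicate 2 was the farthest from the other 2 for 29 of 44 members, and Shank1 stood 2.51 above their mean there. In the saline group replicate 3 was the farthest for 27 members, and at 1 h replicate 3 was the farthest for 26. Some marker lists were higher in most of these libraries, and others were not. Relative to saline, the median of the 10 interneuron markers, all measured in every library, was 0.71 in replicate 3 at 15 min, 0.68 in replicate 3 at 1 h and 0.41 in saline replicate 3. It lay from -0.30 to 0.00 in saline replicates 1 and 2, replicate 1 at 15 min and replicates 1 and 2 at 1 h, and at 6 h it was 0.22 in replicate 2 and 0.50 in replicate 3. Their summed linear signal ranged between 22.8 and 37.4 in the saline group, 28.2 and 46.6 at 15 min, 25.2 and 50.4 at 1 h, 23.5 and 46.9 at 6 h. The striatal list (9 of 9 measured) stood at 0.78 in replicate 3 at 15 min, 1.22 in replicate 3 at 1 h and 0.64 in replicate 2 at 6 h, and the neocortical list (7 of 8) at 0.51, 0.87 and 0.30, although these lists were also at 0.58 and 0.41 in replicate 3 at 6 h, and the striatal list at 0.56 in replicate 1 at 15 min. Replicate 2 at 6 h further had the highest oligodendrocyte precursor (0.50) and the lowest ependymal (-1.41) median of the 11 libraries, and a choroid plexus median of -2.51, beside -2.43 in replicate 1 at 1 h and -1.99 in replicate 1 at 6 h. The pan-neuronal list (12 of 12) stood at -0.11 in replicate 3 at 15 min, -0.15 in replicate 3 at 1 h and -0.14 in replicate 2 at 6 h. In saline replicate 3 it was 0.01, and it lay from -0.13 to 0.05 in the other libraries. In the same order the endothelial list was at -0.54, -0.43, -0.36 and -0.16, and the pericyte list at -0.57, -0.51, -0.54 and -0.08. The thalamus list was at -0.45, -0.36, 0.09 and -0.15. In the remaining insulin libraries the endothelial list lay from -0.29 to -0.01 and the pericyte list from -0.39 to 0.00. Saline replicates 1 and 2 had 0.26 and -0.17 for the endothelial list, and 0.19 and -0.15 for the pericyte list. The part of any of these lists in the values of the synapse genes was not tested.

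**Figure D1:**
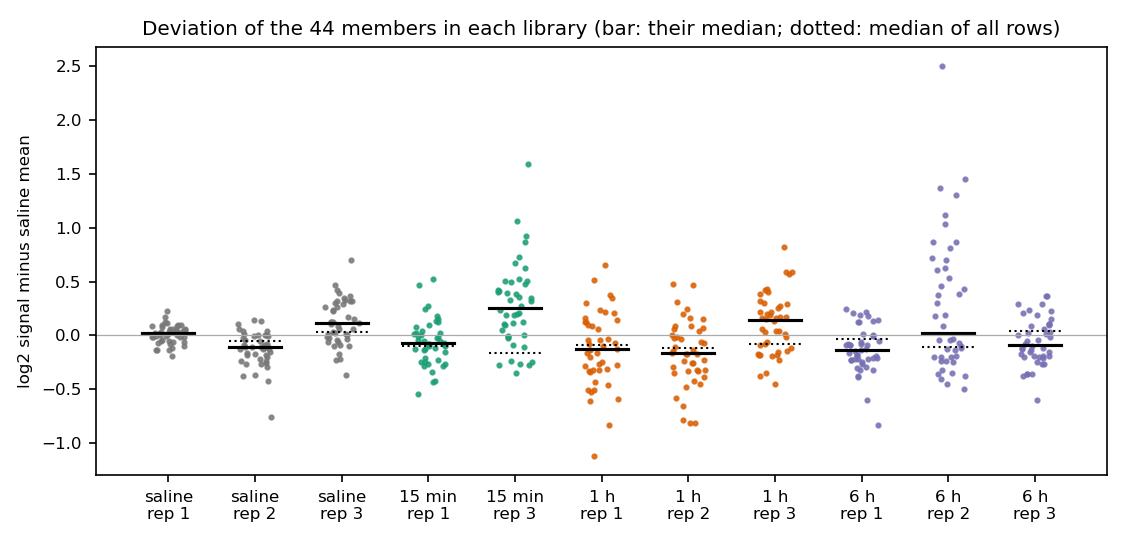
Each point is 1 of the 44 genes in 1 library, as its log2 signal minus the mean of the 3 saline libraries (y axis); libraries are on the x axis, the solid bar is the median of the 44 genes and the dotted bar the median of all rows. The members of replicate 3 at 15 min have a median of 0.25, and those of replicate 2 at 6 h spread widest, up to 2.50.

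No gene of the 44 changed past an adjusted p of 0.05 in limma at any time. The smallest adjusted p among them was 0.187, 0.0791 and 0.642 at 15 min, 1 h and 6 h. Over all rows tested, 0.239% were called at 15 min, 0.877% at 1 h and 0% at 6 h, so that a count of 0 among 44 genes is close to the background. The all-row calls were 12 higher and 54 lower at 15 min and 36 higher and 207 lower at 1 h, and after re-centring each library they were 20 and 26, and 94 and 107. At an unadjusted p under 0.05 there were 3 members (6.82%) at 15 min, 5 (11.4%) at 1 h and 6 (13.6%) at 6 h, beside 15.1%, 15.7% and 6.98% of all rows. The limma F test for a change at any insulin time called 0 of 44 genes (smallest adjusted p 0.165; 0.365% of all rows called), with 5 at an unadjusted p under 0.05 beside 14.4% of all rows. The comparison of all 8 insulin libraries with saline also called 0 (smallest adjusted p 0.194; 0.119% of all rows called), with 5 at an unadjusted p under 0.05 beside 12.1%.

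In a plain count of members outside the saline range, the shares lay above or below those of all rows. At 15 min 4 members (9.09%) were above all saline libraries in both libraries, beside 6.66% of all rows, and 4 were below, beside 29.8%. At 1 h 5 members (11.4%) were above, beside 5.97%, and 6 (13.6%) were below, beside 20.5%. At 6 h 3 members (6.82%) were above, beside 4.13%, and 7 (15.9%) were below, beside 8.4%.

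For most members these data leave room only for changes short of a doubling or halving, but for many they leave room for changes beyond 1.5-fold. The 95% interval of the log2 change lay within 1 in either direction, a doubling or halving, for 38 of 44 genes at 15 min, 37 at 1 h and 38 at 6 h. It lay within a 1.5-fold change for 17, 23 and 22 genes. Snap25 had the narrowest interval and Shank1 the widest, from -0.59 to 2.43 at 15 min. The median change of the 44 genes at the 3 times was 0.11, -0.11 and -0.03 in turn, against -0.14, -0.11 and -0.04 over all rows. The members thus lay 0.24 above the general shift at 15 min, and with it at 1 h (0.00) and at 6 h (0.01). The offset at 15 min differed between its 2 libraries: it was 0.41 with replicate 3 alone and 0.03 with replicate 1 alone.

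**Figure D2:**
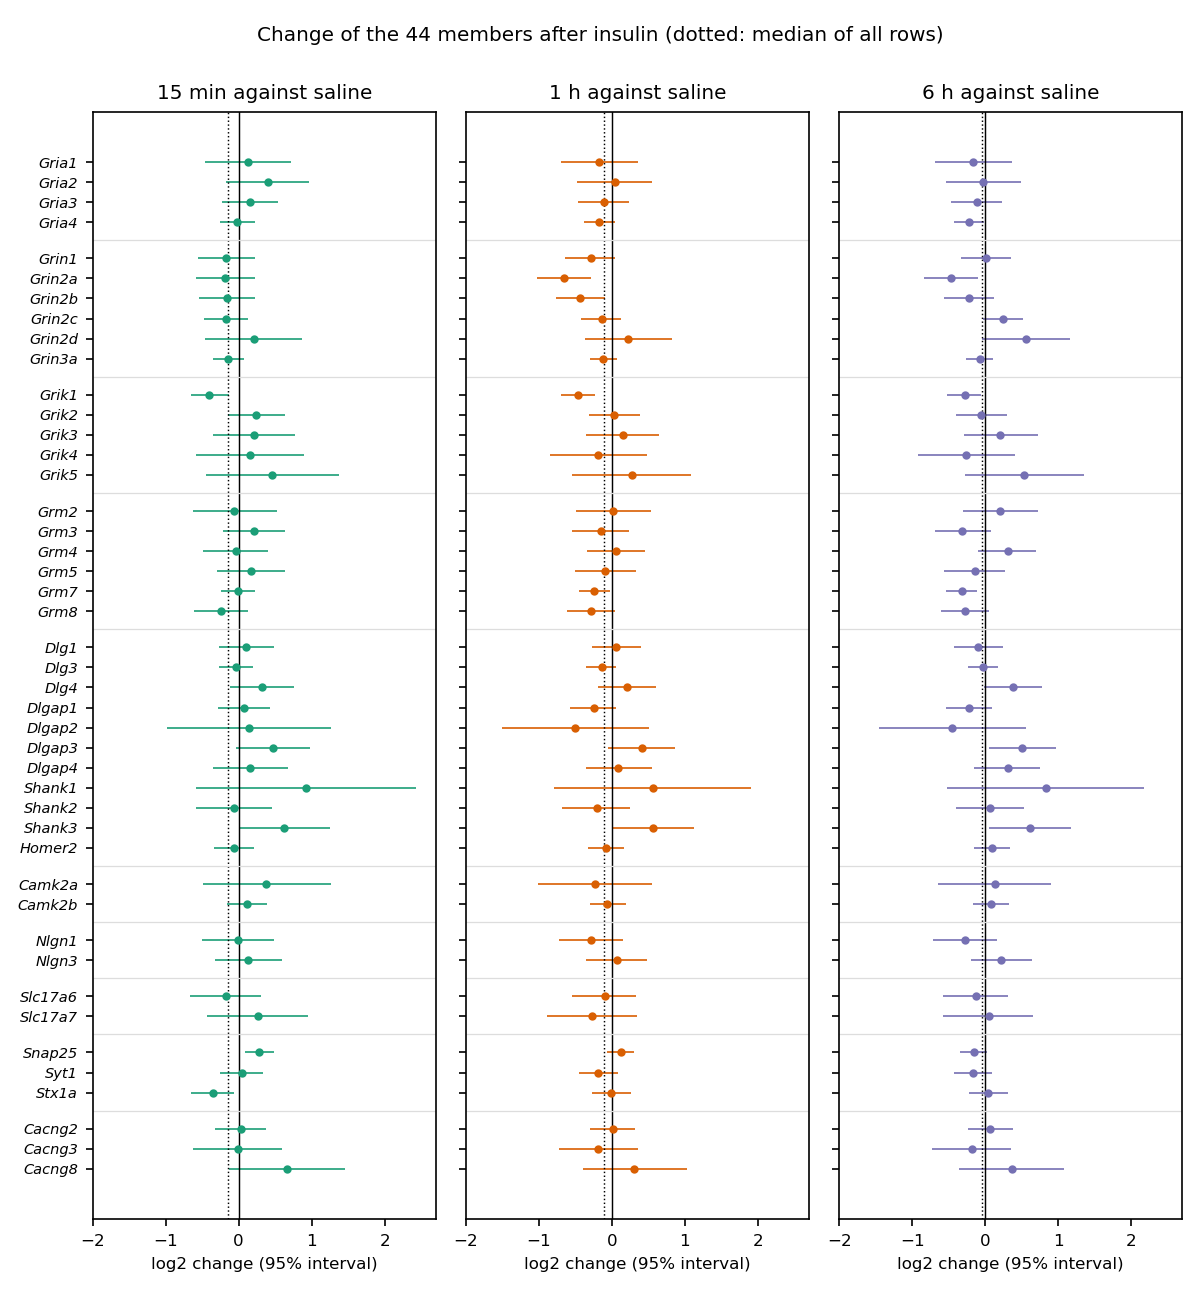
Points are log2 changes against saline (x axis) of each of the 44 genes (y axis, grouped by role) at 15 min, 1 h and 6 h, with 95% intervals; the dotted line is the median of all rows. Shank3 and Dlgap3 lie to the right and Grik1 and Grin2a to the left in all 3 panels, and none passed the adjusted threshold.

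Of the 11 postsynaptic scaffold genes 8 had a positive change at 15 min, 6 at 1 h and 7 at 6 h. Shank3, which encodes a master scaffold that bridges receptor complexes and actin, gave 0.82, 0.79 and 0.76 in the saline libraries. It gave 1.31 and 1.52 at 15 min, 1.44, 1.25 and 1.38 at 1 h, and 0.92, 2.16 and 1.15 at 6 h. Every insulin library lay above every saline library. The log2 change was 0.62 at 15 min (SE 0.28, adjusted p = 0.332), 0.57 at 1 h (SE 0.25, adjusted p = 0.311) and 0.62 at 6 h (SE 0.25, adjusted p = 0.702), folds of 1.54, 1.48 and 1.54. The model shares 1 estimate of the spread among groups, and the SD of Shank3 was 0.03 in saline, 0.14 at 15 min, 0.10 at 1 h and 0.66 at 6 h. Without replicate 2 at 6 h, the same changes of 0.62 at 15 min and 0.57 at 1 h passed the threshold (adjusted p = 0.0412 and 0.0192, with 0.372% and 1.72% of all rows called), while the change at 6 h was 0.25 (adjusted p = 0.925). A fit of saline and 1 h alone also called Shank3 (adjusted p = 0.0252, 0.498% of all rows called). Most settings did not call it. Of 21 alternative settings 1 called Shank3 at 15 min and 3 at 1 h, where the adjusted p in limma ran from 0.0192 to 0.514. The gene lies on chromosome 15, 89493013 to 89560261 in GRCm38.p6, and shares exonic bases with the opposite-strand gene Gm15609. The kit is stranded per the labels, but whether the counting used strand is not given in the sources used here.

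Dlgap3, whose product SAPAP3 links the DLG layer to SHANK, had similar values. Its log2 signals were 0.30, 0.29 and 0.15 with saline, 0.71 and 0.72 at 15 min, 0.76, 0.56 and 0.65 at 1 h, and 0.43, 1.36 and 0.48 at 6 h. Again no insulin library reached down to the saline range. The log2 change was 0.47 at 15 min (SE 0.23, adjusted p = 0.373), 0.41 at 1 h (SE 0.21, adjusted p = 0.379) and 0.51 at 6 h (SE 0.21, adjusted p = 0.702). Without replicate 2 at 6 h it was 0.41 at 1 h with an adjusted p of 0.03, and 0.21 at 6 h with an adjusted p of 0.925. Of 21 alternative settings only 2 called Dlgap3 at 1 h, and the adjusted p in limma ran from 0.03 to 0.608. Dlgap3 lies on chromosome 4, 127168305 to 127237022, and shares no exonic base with another annotated gene.

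Dlg4 encodes PSD-95, the main scaffold of the postsynaptic density (chromosome 11, 70017203 to 70045535). Its signals were 1.96, 1.84 and 1.88 with saline, 2.02 and 2.40 at 15 min, 2.11, 2.04 and 2.15 at 1 h, and 2.01, 2.76 and 2.05 at 6 h. The insulin values began just above the saline values. Log2 changes were 0.32 (SE 0.20), 0.21 (SE 0.18) and 0.38 (SE 0.18), with adjusted p = 0.481, 0.623 and 0.719, and the change at 6 h was 0.14 without replicate 2.

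Shank3, Dlgap3 and Dlg4 were the members above all saline libraries in all 8 insulin libraries, 6.82% of the 44 genes. Of the 25771 rows with a value in every library, 0.718% were so placed. Below all saline libraries in all 8 were Grin3a and Grik1, 4.55% of the members beside 4.21% of the rows. These shares are of the deposited values, in which the median change of all rows was negative at each time. They were not recomputed after re-centring. After re-centring or cyclic loess the changes of Shank3, Dlgap3 and Dlg4 were still positive at each time, with Shank3 at 0.80 and 0.68 at 15 min. Shank1 was also higher on average, by 0.92, 0.56 and 0.83, and was above saline in every library at 1 h only. Saline gave -0.10, -0.09 and 0.29, and 1 h gave 0.41, 0.52 and 0.86. At 15 min the values were 0.28 and 1.63, and replicate 1 at 6 h gave -0.27 where replicate 2 gave 2.54. The other 7 scaffold genes (Dlg1, Dlg3, Dlgap1, Dlgap2, Dlgap4, Shank2 and Homer2) had changes from -0.50, for Dlgap2 at 1 h, to 0.31, for Dlgap4 at 6 h.

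**Figure D3:**
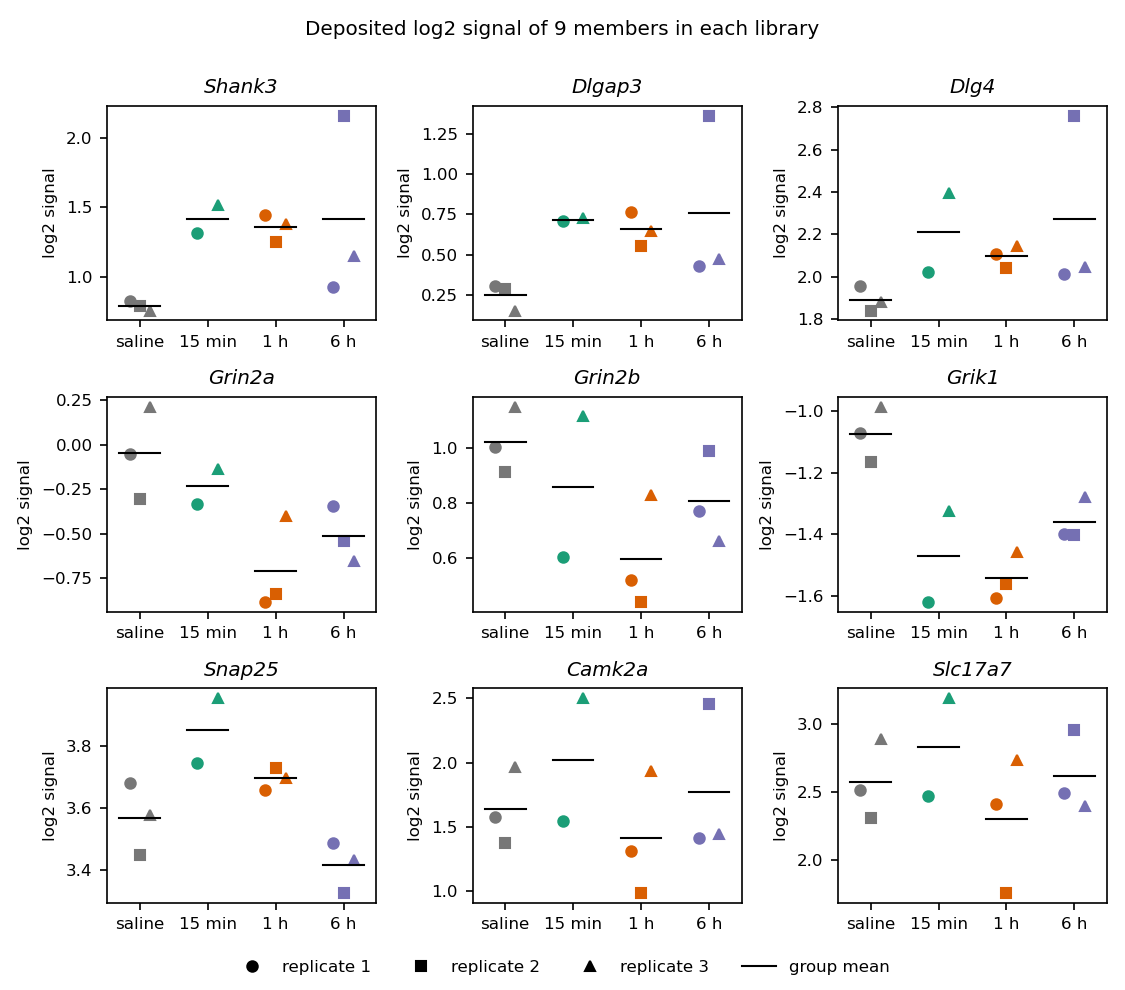
Log2 signal (y axis) of 9 members in each library, by group (x axis), with the marker shape giving the replicate and the bar the group mean. For Shank3, Dlgap3 and Dlg4 the insulin libraries lie above the 3 saline libraries and replicate 2 at 6 h lies far above the rest of its group (2.16, 1.36 and 2.76); Camk2a and Slc17a7 are high in replicate 3 of saline, 15 min and 1 h.

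The sequences just upstream of a start site of Shank3 and of Dlgap3 are shown because these 2 genes stood apart from saline in every insulin library and are the ones called in some settings. Each is the 250 bases before an annotated RefSeq start on GRCm38.p6, which for both genes lies inside the gene's span. The Shank3 window is chr15:89499358-89499607 on the plus strand and the Dlgap3 window is chr4:127172630-127172879 on the plus strand. Capitals mark, in Shank3, the letters GCGTGGGCG on either strand, which EGR factors are known to bind, and in Dlgap3 the E-box letters CANNTG.
Shank3: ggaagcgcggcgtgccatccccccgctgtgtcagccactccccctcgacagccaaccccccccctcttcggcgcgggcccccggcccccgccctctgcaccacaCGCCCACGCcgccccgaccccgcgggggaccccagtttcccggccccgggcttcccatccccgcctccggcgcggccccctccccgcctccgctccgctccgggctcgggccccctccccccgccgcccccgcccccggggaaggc
Dlgap3: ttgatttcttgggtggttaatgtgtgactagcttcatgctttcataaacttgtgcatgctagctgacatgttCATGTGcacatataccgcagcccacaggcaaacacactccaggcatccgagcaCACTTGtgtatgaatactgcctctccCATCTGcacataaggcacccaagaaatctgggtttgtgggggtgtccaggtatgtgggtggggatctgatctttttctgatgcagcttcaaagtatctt

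The windows are unlike each other. That of Shank3 is 82.4% G and C with 31 CpG dinucleotides, 1 EGR match and 4 matches to GGGCGG, the letters of an SP site. That of Dlgap3 is 46.8% G and C with 2 CpG dinucleotides, 3 E-box matches and no match to EGR or SP. Of 32851 such windows of all genes, searched on both strands, 0.536% hold the EGR letters, 32.7% the SP letters and 66.2% an E-box. Windows were found for 30 of the 44 members (44 windows), with a median of 58.8% G and C beside 52.4% in all windows. A match is a description of letters and not of binding.

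The NMDA receptor subunits were mixed, with Grin2a and Grin2b lower and Grin2d higher in all 3 libraries at 1 h than in any saline library. Grin2a encodes the GluN2A subunit that comes to dominate in mature synapses (chromosome 16, 9567901 to 9996083). Its signals were -0.05, -0.30 and 0.21 with saline and -0.34 and -0.13 at 15 min. They were -0.88, -0.84 and -0.40 at 1 h and -0.35, -0.54 and -0.65 at 6 h. All libraries at 1 h and 6 h lay below the lowest saline library, whereas those at 15 min overlapped it. The log2 change was -0.66 at 1 h (SE 0.16, 95% interval -1.02 to -0.29, adjusted p = 0.0962) and -0.47 at 6 h (SE 0.16, adjusted p = 0.702), and -0.19 at 15 min (SE 0.18, adjusted p = 0.658). The value at 1 h corresponds to a level 1.58-fold lower, and over the alternatives it ran from -0.81 to -0.52 with adjusted p from 0.0622 to 0.29.

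Grin2b encodes GluN2B, the subunit with slower closing (chromosome 6, 135713221 to 136173615). It read 1.00, 0.91 and 1.15 with saline, 0.60 and 1.12 at 15 min, 0.52, 0.44 and 0.83 at 1 h, and 0.77, 0.99 and 0.66 at 6 h. The 1 h libraries alone were all under the saline range. The log2 change was -0.43 at 1 h (SE 0.15, adjusted p = 0.216), -0.16 at 15 min (SE 0.17, adjusted p = 0.679) and -0.22 at 6 h (SE 0.15, adjusted p = 0.743). Within a library, the difference Grin2a minus Grin2b does not move with a library-wide offset. It was -1.07 ± 0.14 (SD, n = 3) with saline and -1.30 ± 0.09 (SD, n = 3) at 1 h, a shift of -0.23 with an exact permutation p of 0.1, two-sided, the smallest that 3 against 3 libraries can give (adjusted over 12 such comparisons, 0.4).

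Grin1 encodes GluN1, the subunit that every NMDA receptor needs (chromosome 2, 25291177 to 25319187). Its values were 2.41, 2.29 and 2.25 with saline, 1.98 and 2.32 at 15 min, 1.99, 2.00 and 2.09 at 1 h, and 2.13, 2.75 and 2.12 at 6 h. The 1 h group lay below saline, by 0.29 on average (change -0.29, SE 0.16, adjusted p = 0.403), and the other groups overlapped it (-0.17 and 0.02, SE 0.18 and 0.16, adjusted p = 0.68 and 0.983). At 6 h the change was -0.19 without replicate 2. Grin3a, encoding a subunit that lowers calcium entry (chromosome 4, 49661611 to 49846023), read -0.57, -0.55 and -0.54 with saline and between -0.82 and -0.57 in the 8 insulin libraries. These were all lower, although the highest of them equals the lowest saline value to 2 decimals. The changes were -0.14, -0.12 and -0.07 (SE 0.09, 0.08 and 0.08; adjusted p = 0.502, 0.552 and 0.824), and after re-centring they were 0.03 and 0.02 at 15 min and 1 h. Grin2c and Grin2d, subunits of other brain regions and interneurons, had changes of -0.18 and 0.21 at 15 min, -0.14 and 0.22 at 1 h and 0.25 and 0.56 at 6 h. Grin2d was above all saline libraries at 1 h, and its value of -0.34 in replicate 2 at 6 h stands apart from -1.64 and -1.27 in the other 2. Of the 6 NMDA subunits 5 had a negative change at 15 min and at 1 h, and 3 at 6 h, with medians of -0.17, -0.22 and -0.03 beside -0.14, -0.11 and -0.04 over all rows; after re-centring Grin1 (0.00), Grin2b (0.01) and Grin3a (0.03) were no longer negative at 15 min.

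Among kainate receptor subunits, Grik1, which encodes GluK1 (chromosome 16, 87895901 to 88290863), had the smallest p of all members at 15 min and at 1 h. Its signals were -1.07, -1.17 and -0.99 with saline, -1.62 and -1.32 at 15 min, -1.61, -1.56 and -1.46 at 1 h, and -1.40, -1.40 and -1.28 at 6 h. The highest insulin library remained under the lowest saline library. Log2 changes were -0.40 at 15 min (SE 0.12, adjusted p = 0.187), -0.47 at 1 h (SE 0.11, adjusted p = 0.0791) and -0.28 at 6 h (SE 0.11, adjusted p = 0.702), levels 1.32-fold, 1.38-fold and 1.22-fold lower. Over the 21 alternatives the change at 1 h ran from -0.51 to -0.33, with adjusted p from 0.0507 to 0.253. The other 4 kainate subunits were spread about 0: Grik2, Grik3, Grik4 and Grik5 ran from -0.26 to 0.54 over the 3 times. Grik5 read 0.32 in replicate 2 at 6 h and between -1.25 and -0.22 in the other 10 libraries.

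AMPA receptor subunits showed no separation from saline except Gria4 at 6 h. Gria1, encoding GluA1 whose insertion accompanies potentiation (chromosome 11, 57011571 to 57330244), read 0.30, 0.14 and 0.86 with saline. It read 0.28 and 0.86 at 15 min, 0.09, -0.016 and 0.73 at 1 h, and 0.17, 0.36 and 0.31 at 6 h. The libraries numbered 3 were high in 3 of the groups, and the changes were 0.13, -0.17 and -0.16 (SE 0.26, 0.24 and 0.24; adjusted p = 0.847, 0.781 and 0.864).

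Gria2 encodes GluA2, which makes the channel nearly impermeable to calcium (chromosome 3, 80681450 to 80804227). It gave 1.58, 1.31 and 2.15 with saline, 1.80 and 2.35 at 15 min, 1.56, 1.54 and 2.07 at 1 h, and 1.53, 1.55 and 1.87 at 6 h. Here too every group overlapped saline, with changes of 0.40, 0.04 and -0.03 (SE 0.26, 0.23 and 0.23; adjusted p = 0.497, 0.955 and 0.977). Their within-library difference, Gria2 minus Gria1, was steadier than either gene with saline, at 15 min and at 1 h. At 6 h its SD was 0.18, beside 0.1 for Gria1 and 0.19 for Gria2. The difference was 1.28, 1.17 and 1.29 with saline and 1.52 and 1.49 at 15 min. It was 1.47, 1.55 and 1.34 at 1 h, and 1.37, 1.19 and 1.56 at 6 h. At 15 min and 1 h all libraries lay above saline, by 0.26 and 0.21 (exact permutation p = 0.1 each, two-sided, the smallest these designs can give; adjusted over 12 comparisons 0.4), and at 6 h they overlapped it (0.13, exact permutation p = 0.4). Gria3 ranged from -0.11 to 0.15 in its changes, and Gria4 from -0.22 at 6 h, where all 3 libraries were below saline, to -0.02 at 15 min. Of the TARP genes, whose products escort AMPA receptors to the synapse, Cacng8 had changes of 0.66, 0.31 and 0.37 (SE 0.36, 0.32 and 0.32), with values from -0.90 to 0.36 at 6 h alone, and Cacng2 and Cacng3 lay between -0.19 and 0.07.

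Metabotropic receptors act through G proteins. Grm7, a presynaptic brake on release (chromosome 6, 110645349 to 111567230), read 0.05, -0.08 and 0.17 with saline, -0.08 and 0.16 at 15 min, -0.23, -0.21 and -0.13 at 1 h, and -0.17, -0.31 and -0.33 at 6 h. It was under the saline range in every library at 1 h and 6 h. Its change of -0.32 at 6 h (SE 0.09) had the smallest p of the members at that time (adjusted p = 0.642); at 1 h it was -0.24 (SE 0.09, adjusted p = 0.255) and at 15 min -0.01 (SE 0.11, adjusted p = 0.982). Grm5, the receptor that signals through Homer proteins and calcium stores (chromosome 7, 87583981 to 88135063), read -0.22, -0.37 and 0.15 with saline, -0.22 and 0.26 at 15 min, -0.43, -0.41 and 0.12 at 1 h, and -0.37, -0.35 and -0.14 at 6 h. Its groups overlapped throughout, with changes of 0.17, -0.09 and -0.14 (SE 0.21, 0.19 and 0.19; adjusted p = 0.735, 0.863 and 0.849). Grm8 was below saline in both libraries at 15 min and in all 3 at 6 h, with changes of -0.24 and -0.27. Grm2, Grm3 and Grm4 ranged from -0.31 to 0.31.

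On the presynaptic side Snap25, a SNARE protein of the vesicle fusion complex (chromosome 2, 136713439 to 136782428), had the smallest p between insulin times. It read 3.68, 3.45 and 3.58 with saline, 3.75 and 3.96 at 15 min, 3.66, 3.73 and 3.70 at 1 h, and 3.49, 3.33 and 3.43 at 6 h. Both 15 min libraries were above all saline libraries, and all 6 h libraries were below both earlier insulin groups. Against saline the change was 0.28 at 15 min (SE 0.09, 95% interval 0.08 to 0.49, adjusted p = 0.211), 0.13 at 1 h (SE 0.08, adjusted p = 0.504) and -0.15 at 6 h (SE 0.08, adjusted p = 0.721). From 15 min to 6 h the change was -0.44 (SE 0.09, unadjusted p = 0.000822, adjusted p = 0.166), and from 1 h to 6 h it was -0.28 (SE 0.08, adjusted p = 0.263).

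Stx1a, the syntaxin partner of Snap25 in that complex (chromosome 5, 135023482 to 135051100), differed from it. It read -0.46, -0.48 and -0.62 with saline, -0.96 and -0.80 at 15 min, -0.29, -0.70 and -0.60 at 1 h, and -0.40, -0.62 and -0.41 at 6 h. The 15 min group alone lay wholly below saline, with a change of -0.35 (SE 0.13, adjusted p = 0.261), beside -0.01 and 0.04 later (SE 0.12 each; adjusted p = 0.984 and 0.928). Syt1, the calcium sensor of fusion, had changes of 0.04, -0.19 and -0.16.

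Slc17a7 encodes VGLUT1, the vesicular glutamate transporter of hippocampal and cortical neurons (chromosome 7, 45163921 to 45176139). It read 2.51, 2.30 and 2.89 with saline, 2.47 and 3.19 at 15 min, 2.41, 1.75 and 2.73 at 1 h, and 2.49, 2.96 and 2.40 at 6 h. Differences within groups exceeded those between them: the changes were 0.26, -0.27 and 0.05 (SE 0.31, 0.28 and 0.28; adjusted p = 0.721, 0.685 and 0.968). Slc17a6, the VGLUT2 of thalamic and other subcortical neurons, was measured at 2.37 to 3.04. Slc17a7 minus Slc17a6 varied from -1.04 to 0.72 over libraries. Its shifts from saline were 0.44, -0.17 and 0.18 (exact permutation p = 0.5, 0.8 and 0.6, two-sided, in designs that cannot go below 0.1).

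Camk2a, the kinase subunit abundant in forebrain excitatory neurons, read 1.58, 1.38 and 1.97 with saline, 1.54 and 2.50 at 15 min, 1.31, 0.98 and 1.94 at 1 h, and 1.41, 2.45 and 1.44 at 6 h. Replicate 3 was highest in the saline, 15 min and 1 h groups and replicate 2 at 6 h. The changes of 0.38, -0.23 and 0.13 (SE 0.39, 0.35 and 0.35) had adjusted p = 0.674, 0.802 and 0.927, and the change at 15 min was -0.10 without replicate 3. Camk2b lay within 0.11 of saline on average. The neuroligins, adhesion molecules that bind neurexins across the cleft, had changes of -0.29 to -0.01 for Nlgn1 and 0.07 to 0.22 for Nlgn3.

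Between insulin times no member passed the test either. The smallest adjusted p was 1 for 1 h against 15 min, 0.166 for 6 h against 15 min and 0.263 for 6 h against 1 h, with 0%, 0.00723% and 0.0108% of all rows called. At an unadjusted p under 0.05 there were 2, 5 and 2 members, beside 3.49%, 14.2% and 11.1% of all rows. From 15 min to 1 h 37 of 44 genes had a negative change (median -0.15, against 0.02 over all rows), and from 1 h to 6 h 33 had a positive one (median 0.06, against 0.07). The 11 scaffold genes were all lower at 1 h than at 15 min, by -0.64 to -0.02. Replicate 3 at 15 min, with its high members, is 1 of the 2 libraries on which the first comparison rests.

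The changes of the members were related to a property of the genes, and so were some differences between libraries of the same group. Over the 44 genes the change correlated with the log2 span of the gene at -0.23 at 15 min, -0.48 at 1 h and -0.65 at 6 h. Over all rows with a span the correlations were 0.02, -0.04 and -0.10. Within the saline group, replicate 3 minus the mean of the others correlated with span at 0.49 over the members and 0.15 over all rows. The same difference gave 0.38 and 0.11 for replicate 3 at 1 h, and -0.42 and 0.05 for replicate 2 at 6 h. Replicate 3 minus replicate 1 at 15 min gave 0.07 and 0.15. At 6 h the 22 shorter members had a median change of 0.17, with 17 positive, and the 22 longer ones -0.19, with 4 positive. All rows split at the same span had medians of -0.02 and -0.17. With all libraries at 6 h, the longer members thus lay close to other long genes and the shorter members above other short ones. At 1 h the members' medians were 0.03 and -0.18, beside -0.09 and -0.21 over all rows. Without replicate 2 at 6 h the correlation was -0.63 (-0.12 over all rows) and the medians were 0.02 and -0.18. All rows then had medians of 0.02 and -0.16, so the shorter members no longer lay above other short genes. Spans ran from 11.6 kb (Grm2) to 922 kb (Grm7), with a median of 126 kb. Shank3 and Dlgap3, of 67.2 and 68.7 kb, lie in the shorter part, and Grin2a, Grik1 and Grm7, of 428, 395 and 922 kb, in the longer.

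Base composition ran with span. The transcript G and C content correlated with the change at 0.30, 0.43 and 0.68 over the 44 genes, against 0.06, 0.15 and 0.29 over all rows, and with log2 span at -0.56. At 6 h the correlation with G and C was 0.38 without replicate 2, and the difference of that replicate from the other 2 correlated with it at 0.71. These are descriptions across genes, which share libraries and controls, and which of span and composition goes with the change was not separated.

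**Figure D4:**
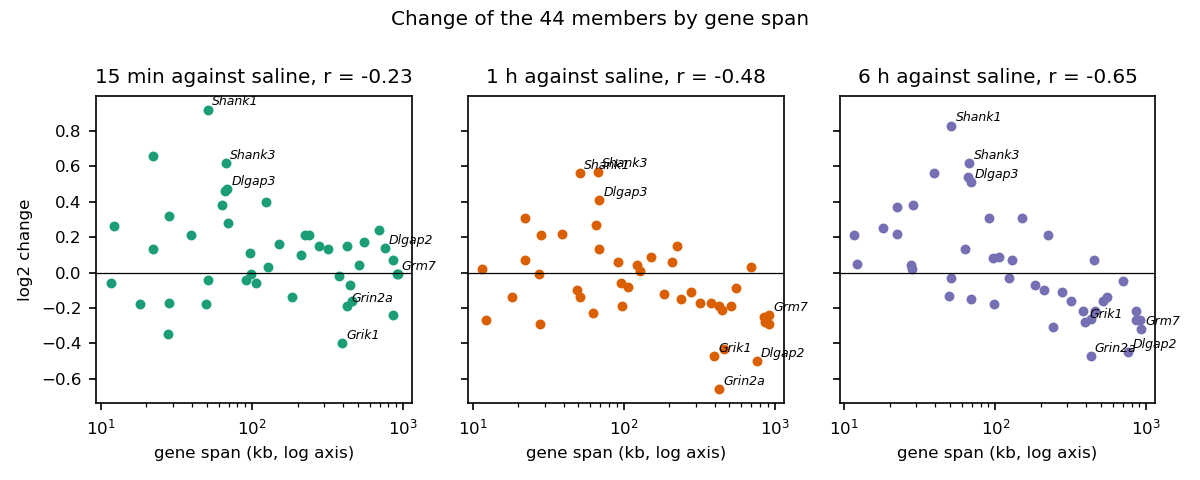
Each point is 1 of the 44 genes, with its span in kb on a log x axis and its log2 change against saline on the y axis, at 15 min, 1 h and 6 h. Longer genes such as Grin2a, Grik1 and Grm7 lie below 0 at 6 h and shorter ones such as Shank1, Shank3 and Dlgap3 above it (r = -0.65).

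A second list held 58 other genes of the excitatory synapse, of which 57 were in the table and 56 entered the test. At 15 min 1 of the 56 was called, at 1 h 2 and at 6 h 0, all lower, beside 0.239%, 0.877% and 0% of all rows, and their median changes were 0.03, -0.02 and 0.02. Shisa9, whose product binds AMPA receptors and modulates their short-term plasticity, read 0.32, 0.17 and 0.28 with saline and -0.46 and -0.49 at 15 min. It read -0.72, -0.52 and -0.58 at 1 h and -0.18, -0.15 and -0.42 at 6 h. All 8 insulin libraries lay below all saline libraries. It fell by 0.73 at 15 min (SE 0.11, adjusted p = 0.0338) and by 0.86 at 1 h (SE 0.10, adjusted p = 0.0043), levels 1.66-fold and 1.82-fold lower, and the change at 6 h was -0.51 (SE 0.10, adjusted p = 0.351). The call at 1 h held in 21 of 21 alternatives and that at 15 min in 7 of 21. At 15 min the call was lost after re-centring each library (-0.56, adjusted p = 0.144) and after cyclic loess (-0.64, adjusted p = 0.0869). With replicate 3 at 15 min left out, the change there was -0.72.

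Grid1, encoding the delta receptor GluD1 that acts with cerebellins and neurexins as a synapse organizer, was the other gene called. It read -0.86, -1.01 and -0.79 with saline, -1.46 and -1.35 at 15 min, -1.69, -1.39 and -1.39 at 1 h, and -1.27, -1.28 and -1.35 at 6 h. Again no insulin library overlapped saline. It fell by 0.61 at 1 h (SE 0.11, adjusted p = 0.0392), while the changes of -0.52 at 15 min and -0.41 at 6 h did not pass (adjusted p = 0.13 and 0.596). This call held in 7 of 21 alternatives, and was lost, among others, without replicate 1 at 1 h (-0.51, adjusted p = 0.132). It was also lost after re-centring each library (-0.47, adjusted p = 0.113) and after cyclic loess (-0.5, adjusted p = 0.0964).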

How the data were processed

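RNA of 11 hippocampus libraries was sequenced from both ends with a stranded total RNA kit, per the labels' protocols. The table the authors deposited gives 1 log2 signal per symbol and library (unit other in the records, since missing cells hold a mark); the authors quantile-normalized them between libraries, as the values show (equal minimum -13.64, median -3.20 and maximum 16.00). Named in the submitters' processing notes are GRCm38, bcl2fastq and Partek 6.7; aligner and counter were not given in the sources used here. Base 2 was checked on ratios between low values.

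The members and lists were chosen with earlier results of these data known. In R 4.3.3, limma 3.58.1 was fitted to the 4 groups over all 11 libraries after the lowest 40% of rows by mean were left out (27721 kept, 1950 with a missing value), with a mean-variance trend, two-sided, Benjamini-Hochberg adjusted at 0.05 over all rows. No set test was run. Scripts were tested on simulated data. Genes given with all values were those with the 3 smallest p per direction and comparison and a panel (Gria1, Gria2, Grin1, Grin2a, Grin2b, Grm5, Dlg4, Shank3, Camk2a, Snap25, Slc17a7). Spans, positions and promoter windows are from RefSeq on GRCm38.p6.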

Additional observations from a re-analysis of the deposited data

How the results depend on the processing

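The count of 0 members called at each time held in most settings: without filter, with the lowest 60% left out, re-centred, after cyclic loess, with an offset of 0.1, without trend and with robust shrinkage. A fit of the 2 groups alone called 1 member at 1 h. When each library was left out in turn, 0 to 1 members were called at 15 min, 0 to 2 at 1 h and 0 to 1 for any insulin time, the calls of Shank3 and Dlgap3 coming without replicate 2 at 6 h; without that library and replicate 3 at 15 min, a setting chosen after seeing the data, 2 were called at 1 h (1.54% of all rows). The median of the members relative to all rows at 15 min was 0.03 to 0.41 on leaving out each library and 0.03 without those 2. Re-centring moved the median of all rows from -0.14 to 0.04 at 15 min and from -0.11 to 0.03 at 1 h.

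Several small changes turned their sign. Re-centred, Grin1 was 0.00 and Grin2b 0.01 at 15 min, Grm5 0.05 at 1 h and Gria2 0.00 at 6 h. On leaving out each library, at 15 min Gria1 ran from -0.16 to 0.42, Grin1 from -0.34 to 0.00, Grin2b from -0.42 to 0.09, Grm5 from -0.07 to 0.41, Camk2a from -0.10 to 0.86 and Slc17a7 from -0.10 to 0.62; at 1 h Gria1 from -0.40 to 0.04, Gria2 from -0.14 to 0.27, Grm5 from -0.27 to 0.06 and Slc17a7 from -0.49 to 0.00; at 6 h Gria1 from -0.30 to 0.05, Gria2 from -0.21 to 0.21, Grin1 from -0.19 to 0.12, Grm5 from -0.25 to 0.01, Camk2a from -0.21 to 0.31 and Slc17a7 from -0.13 to 0.21. Without replicate 3 at 15 min and replicate 2 at 6 h, the 15 min changes were -0.16 for Gria1, -0.07 for Grm5 and -0.10 for Camk2a and for Slc17a7, and the 6 h changes 0.02 for Gria2, -0.19 for Grin1, -0.21 for Camk2a and -0.13 for Slc17a7.

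The labels do not say that replicate numbers pair the samples. Over all rows 5 of 15 same-numbered pairs had deviations correlated over 0.1 (-0.06 to 0.24, median 0.09), as had 5 of 30 pairs of other numbers (median -0.065). Of the 11 libraries, 6 correlated best with their own number. Deviations were taken from the group mean, so those within a group cancel out and the pairs are not independent. The contrast between the 2 medians is partly fixed by this. Over the members alone, saline and 1 h deviations correlated at 0.49, 0.33 and 0.90 for numbers 1, 2 and 3, but saline replicate 2 and 1 h replicate 1 also at 0.84. With the replicate number as a block, 0 members were called in each comparison, the calls of Shisa9 at 15 min (-0.71, adjusted p = 0.0874) and Grid1 at 1 h (-0.61, adjusted p = 0.0594) were lost, that of Shisa9 at 1 h was kept (adjusted p = 0.0179), and the calls over all rows were 38 at 15 min (66 without the block) and 159 at 1 h (243). Depth is unknown, so counting error cannot be given.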
